A study of Mus musculus with 2 samples.

Results

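The circadian clock genes were examined for enriched regions left by an Otp antibody on chromatin of the hypothalamic paraventricular nucleus (PVN). Otp, or Orthopedia, is a homeodomain protein needed for neurons of this nucleus to form, and the series concerns its part in transcription of Mc4r, the melanocortin 4 receptor. The 10 genes were Clock, Arntl (also called Bmal1), Per1, Per2, Per3, Cry1, Cry2, Nr1d1, Nr1d2 and Dbp, named by a fixed list and placed by their RefSeq positions in mm10, out of 21887 protein-coding genes. CUT&RUN, in which an antibody tethers a nuclease that cuts out the DNA beside its target, was run on nuclei of PVN neurons, as the labels call them, from adult mice of the genotype WT. There were 2 libraries, 1 with the Otp antibody and 1 with IgG, a control antibody without a target; they differ, per the labels, in the antibody alone. The nuclei were collected over a sucrose cushion and the protocol names no sort, so other cells of the PVN may be among them. Since each antibody has 1 library, nothing below was checked in a replicate or tested between antibodies.

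The clock is a feedback loop that runs in nearly every cell. The paired activators CLOCK and BMAL1 bind E-boxes and switch on the Period and Cryptochrome genes, whose proteins return to the nucleus and block the activators. In a second loop the nuclear receptors encoded by Nr1d1 and Nr1d2 (REV-ERB alpha and beta) repress Arntl, and DBP carries the rhythm to target genes through D-boxes. The suprachiasmatic nucleus, a neighbour of the PVN, holds the master clock, and the PVN passes its signals on to hormone release and feeding.

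Regions of both lists were assigned to a gene when the summit, the point of most signal, lay inside it or within 50 kb. A region was at a gene end when its summit lay within 1 kb of either end of the outermost gene model. Otp regions were found around 9 of the 10 clock genes, 30 in all, against 63.6% of protein-coding genes with at least 1 such region. In the members' own deciles of gene length this share was higher for most, from 61.0% (Dbp) to 73.8% (Clock). At a gene end, 8 of 10 had a region, against 27.2% of all protein-coding genes and 23.4 to 35.2% of genes in the same deciles of length as the members. Arntl and Clock were the exceptions at the outermost ends. The Arntl region lay at an inner RefSeq start instead, so that Clock was the single member without a region at an end or a start. Among the 9 members in a RefSeq table of start sites, which does not hold Per2, 8 had an Otp region within 1 kb of a start, against 29.5% of the genes in that table. No test stands behind these counts, and a share of genes is their yardstick.

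**Figure D1:**
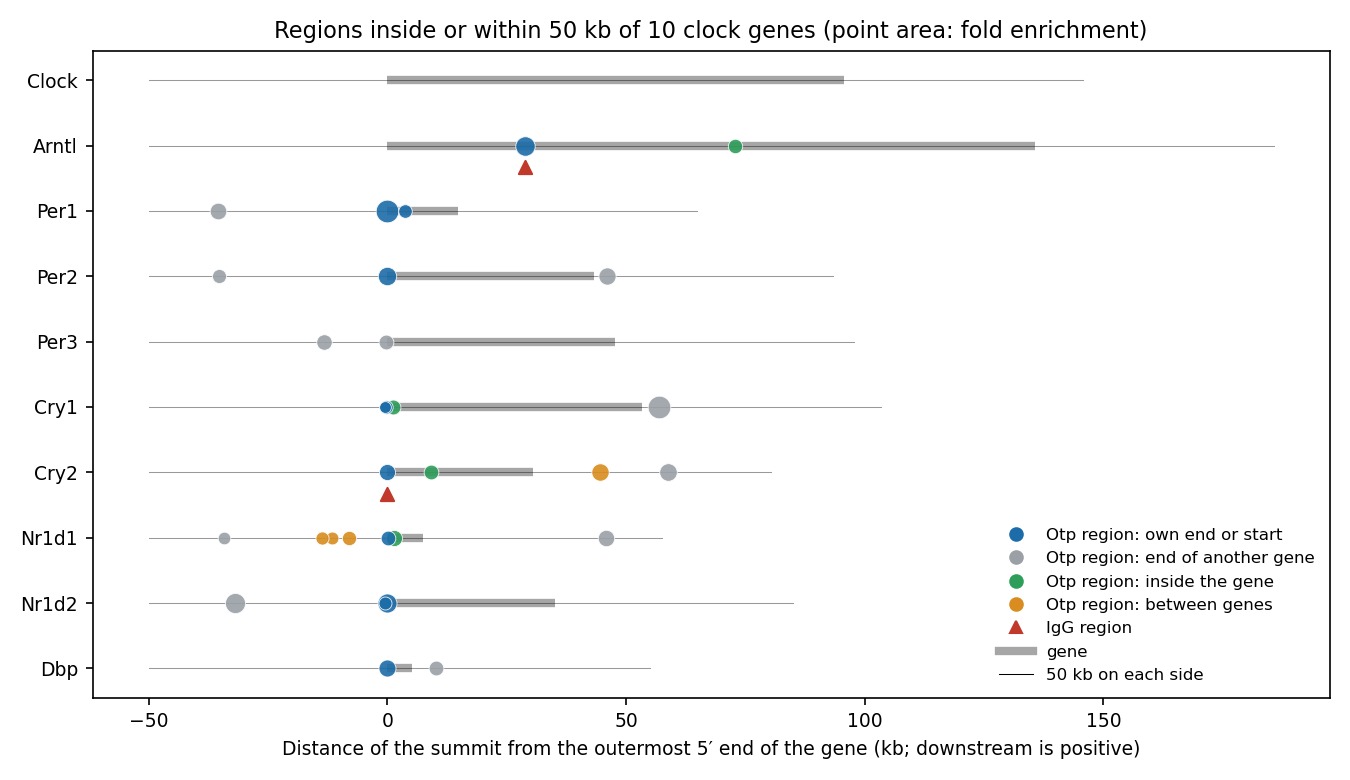
Each line is a clock gene (grey bar) with 50 kb on either side, and the horizontal axis gives the distance in kb from its outermost 5′ end. Circles are Otp regions, with an area that follows the fold enrichment and a colour for their place, and triangles are IgG regions; 8 genes carry a region near the 5′ end (that of Per3 is nearer to a neighbour), Arntl has its strongest inside the gene, and Clock has none.

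The 30 regions had a median fold enrichment of 6.62, with a range of 3.98 to 14.8, and a median width of 175 bp, from 71 to 444 bp. Fold enrichment is the ratio of signal at the summit to the background estimated by the authors' peak caller, and it is used here to rank regions within a list. Of these regions, 11 lay nearest to the member's own end or start, and they held a median of 25 tags at the summit, from 9 to 75. A further 11 lay within 1 kb of an end of a different protein-coding gene. Away from such ends, 4 lay inside the member and 4 lay outside it. Tags are the reads or fragments that the caller counted, worked out from the deposited values. At the edges of the rule, the farthest region counted was 38447 bp from Nr1d1 and the nearest left out was 55302 bp from Arntl. At the 1 kb bound, a region 531 bp from the Cry1 end was counted, while regions 1221 bp from that end and 1311 bp from an end of Nr1d1 were not.

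Of the activators, Arntl carried a region and Clock did not. Arntl (gene ID 11865) spans chr7:113178471-113314126 and encodes BMAL1, the subunit without which the loop stops. Its Otp region covered chr7:113207092-113207535, a width of 444 bp that 1.67% of all Otp regions reached. The summit held 29 tags (95% Poisson interval 19.4 to 41.6), with a fold enrichment of 10.9 and a −log10 q of 21.4, rank 1198 of 11379. It lay 28800 bp inside the outermost end but 194 bp upstream of a RefSeq start. The 250 bases before that start are shown because the Otp region covers all of them and an IgG region overlaps them. They read 5′ to 3′ along the gene (chr7:113207215-113207464, plus strand, RefSeq, GRCm38.p6, the assembly behind mm10), and the capitals mark CCAAT boxes, here all in the reverse orientation.
Arntl: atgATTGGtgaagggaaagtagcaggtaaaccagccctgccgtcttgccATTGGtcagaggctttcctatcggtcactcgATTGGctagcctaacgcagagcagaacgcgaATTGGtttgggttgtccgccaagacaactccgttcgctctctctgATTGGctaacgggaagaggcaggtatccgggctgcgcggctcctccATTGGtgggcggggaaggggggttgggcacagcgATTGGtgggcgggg
The 300 bases around this start held 8 CCAAT boxes, and no other of the 32851 windows in the table held as many. The Otp summit lay 5 bp from the centre of the nearest. The boxes stand along the whole window, from 247 bp upstream to 28 bp downstream of the start, so any summit there lies near one.

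A weaker Otp region was inside Arntl at chr7:113251178-113251249, 43709 bp downstream of the nearest start, at a fold enrichment of 5.97 and 11 tags (5.49 to 19.7).

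Clock (gene ID 12753, chr5:76209868-76305603, minus strand) encodes the partner of BMAL1 and had no region of either list inside it or within 50 kb. The nearest Otp summit was 223595 bp away, in a region of 24 tags at chr5:76529115-76529331 and 109 bp from an end of Exoc1. In its decile of length, 26.2% of genes also had no region within 50 kb, and 7.90% (173 of 2189) were at least as far from one. CpG steps, which are dense in the promoters of most broadly active genes, were not scarce there. Of the 3 RefSeq starts, 2 had 42 and 46 CpG in 300 bases and the other 9, and 36.0% of the 827 starts of protein-coding genes with at least 42 had an Otp region within 1 kb. The start with 9 CpG had a match to AGGTCA, the ROR element described below, 119 bp upstream and a CCAAT box 42 bp downstream. The 250 bases before the start with 42 CpG (chr5:76304793-76305042, minus strand) are given for comparison with Arntl. Unlike the window of the start with 9 CpG, they hold none of the elements that are capitalised in the other sequences.
Clock: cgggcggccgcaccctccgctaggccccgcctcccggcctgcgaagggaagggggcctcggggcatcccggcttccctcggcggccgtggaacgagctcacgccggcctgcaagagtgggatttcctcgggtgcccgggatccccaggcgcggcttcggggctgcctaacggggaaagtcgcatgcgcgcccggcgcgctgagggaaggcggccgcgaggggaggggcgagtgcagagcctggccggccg
An absence from a list says only that no region passed the caller's threshold at this depth.

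All 3 Period genes, which encode the repressors that accumulate over the day, had a region at an end, and the strongest of the whole group was at Per1. Per1 (gene ID 18626) spans chr11:69095108-69109965. Its main region at chr11:69094857-69095251 held 75 tags (59.0 to 94.0) with the summit 89 bp from the lower end, which is the outermost 5′ end. The fold enrichment was 14.8 and the −log10 q 60.9, rank 174 of 11379. Among the 5961 protein-coding genes with a region at an end, 35 had one with a higher −log10 q. This summit lay 3930 bp upstream of the nearest start in the RefSeq start table.

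A second Per1 region at chr11:69098751-69098889 was weaker, at a fold enrichment of 5.30 and 26 tags (17.0 to 38.1), and its summit lay 152 bp upstream of that start. The sequence before it (chr11:69098699-69098948, plus strand) is shown because it holds an E-box, the element through which CLOCK and BMAL1 act. Capitals mark the E-box (CACGTG) and, in either orientation, CCAAT boxes and a ROR element. The ROR element, searched as AGGTCA on both strands, is recognised by REV-ERB and ROR receptors.
Per1: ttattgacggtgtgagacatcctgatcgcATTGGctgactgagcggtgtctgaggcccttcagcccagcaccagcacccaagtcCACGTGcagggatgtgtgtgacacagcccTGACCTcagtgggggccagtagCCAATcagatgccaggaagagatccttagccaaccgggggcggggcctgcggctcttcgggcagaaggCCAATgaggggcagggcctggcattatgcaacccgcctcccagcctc
The E-box lay 11 bp and the ROR element 18 bp from the Otp summit, measured from their centres. This region is 139 bp wide, so any element inside it lies near the summit. No expected distance was worked out for these or the other elements. The remaining region within 50 kb of Per1, of 27 tags, lay 107 bp from an end of Borcs6.

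Per2 (gene ID 18627, chr1:91415977-91459351) had its region at chr1:91459292-91459635. The summit was 78 bp from the upper end, which is the 5′ end by general knowledge of the gene, and held 25 tags (16.2 to 36.9) at a fold enrichment of 9.74. Of its 2 other regions, 1 lay 670 bp from an end of Hes6, of the Hes family of transcription factors, and 1 lay 12 bp from an end of Traf3ip1, a cilium gene.

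Per3 (gene ID 18628, chr4:150997018-151044707, minus strand) had a lower value, 15 tags (8.40 to 24.7) at a fold enrichment of 6.31, in the region chr4:151044848-151045023. Its summit was 218 bp from the Per3 end and 260 bp upstream of the start, but nearer still, 72 bp, to an end of the predicted gene Gm38529. The sequence before the start (chr4:151044666-151044915, minus strand) is shown for its pair of D-boxes, TTATGTAA, the element bound by DBP and its relatives, which are capitalised with the CCAAT boxes.
Per3: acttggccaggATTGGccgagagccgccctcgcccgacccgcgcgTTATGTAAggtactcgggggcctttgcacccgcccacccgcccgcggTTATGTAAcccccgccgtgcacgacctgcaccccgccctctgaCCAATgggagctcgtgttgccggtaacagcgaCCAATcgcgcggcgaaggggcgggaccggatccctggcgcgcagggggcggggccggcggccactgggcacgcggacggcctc
The D-boxes lay 58 and 105 bp from the Otp summit. D-boxes (TTATGTAA or TTACGTAA) were in 1.06% of all 32851 windows, and 8 windows held at least 2. The other Per3 region, of 15 tags, lay 150 bp from an end of Vamp3, a vesicle fusion gene.

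The Cryptochromes, the main repressors of CLOCK and BMAL1, both had a region at the 5′ end, and their tag intervals overlapped. Cry2 (gene ID 12953, chr2:92403646-92434085, minus strand) had a region of 344 bp at chr2:92434048-92434391. It held 24 tags (15.4 to 35.7) with the summit 79 bp outside the gene, a fold enrichment of 7.45 and a −log10 q of 12.8. Its sequence before the start (chr2:92434070-92434319, minus strand) is printed because an IgG region lay here as well, with the CCAAT boxes capitalised.
Cry2: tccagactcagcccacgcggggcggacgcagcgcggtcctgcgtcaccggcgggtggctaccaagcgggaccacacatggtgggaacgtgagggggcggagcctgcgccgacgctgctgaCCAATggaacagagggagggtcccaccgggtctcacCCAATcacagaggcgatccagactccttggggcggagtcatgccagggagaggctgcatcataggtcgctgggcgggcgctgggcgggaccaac
The Otp summit lay 3 bp from the centre of a CCAAT box, again without an expected distance beside it. Of the other 3 regions of Cry2, 1 of 23 tags lay 693 bp from an end of Pex16, a peroxisome gene.

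Cry1 (gene ID 12952, chr10:85131700-85185054, minus strand) had 2 regions at its 5′ end, at chr10:85185360-85185451 and chr10:85185528-85185598, with 12 tags (6.20 to 21.0) and 9 tags (4.12 to 17.1). Their fold enrichments of 5.16 and 3.98 were among the lowest of the 30, and the second, with a −log10 q of 2.23, ranked 11302 of 11379. Both summits were upstream of the start, by 338 and 531 bp, beyond the sequence shown (chr10:85185055-85185304, minus strand). That sequence holds the E-box and a CCAAT box, and the nearest Otp summit was 280 bp from the E-box.
Cry1: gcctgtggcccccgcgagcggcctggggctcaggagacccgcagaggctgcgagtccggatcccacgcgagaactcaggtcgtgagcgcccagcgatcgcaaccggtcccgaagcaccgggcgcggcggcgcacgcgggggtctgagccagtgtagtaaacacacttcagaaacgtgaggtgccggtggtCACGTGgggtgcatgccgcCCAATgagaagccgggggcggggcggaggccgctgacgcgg
Another region, of 15 tags, lay 1221 bp inside the gene. The strongest region around Cry1, at a fold enrichment of 14.8 and 34 tags (23.5 to 47.5), lay 3626 bp beyond its far end and 47 bp from an end of Mterf2, a gene of mitochondrial transcription.

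The REV-ERB genes both had regions at the 5′ end, and Nr1d1 had the most regions of any member. Nr1d2 (gene ID 353187, chr14:18204056-18239106, minus strand) had 36 tags (25.2 to 49.8) at chr14:18239000-18239437, with the summit 113 bp upstream of the start. The region was 438 bp wide and had a fold enrichment of 10.4. A second one, 471 bp upstream at chr14:18239524-18239621, had 16 tags (9.15 to 26.0). Nr1d2 and Cry1 thus had 2 regions at an end, against 2.43% of protein-coding genes with 2 or more. The sequence before the Nr1d2 start (chr14:18239107-18239356, minus strand) is shown as one covered by an Otp region with no IgG region, and the capitals mark a CCAAT box and a ROR element.
Nr1d2: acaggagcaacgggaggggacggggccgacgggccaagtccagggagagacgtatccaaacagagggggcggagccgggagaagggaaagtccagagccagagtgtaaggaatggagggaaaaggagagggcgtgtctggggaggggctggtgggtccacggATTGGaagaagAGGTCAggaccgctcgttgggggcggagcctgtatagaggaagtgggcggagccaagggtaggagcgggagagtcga
The ROR element lay 38 bp and the CCAAT box 27 bp from the summit. The last region near Nr1d2, of 29 tags, lay 14 bp from an end of Nkiras1.

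Nr1d1 (gene ID 217166, chr11:98767932-98775377, minus strand) had 7 regions, a number reached by 0.731% of genes in its decile of length. The region at its start, chr11:98775231-98775538, held 22 tags (13.8 to 33.3) with the summit 69 bp downstream, inside the gene. The highest of the 7 was 1311 bp inside the gene at chr11:98773813-98774132, by −log10 q (14.1) and tags (27, 17.8 to 39.3). Upstream of the start, 3 regions stood between Nr1d1 and Msl1, 8147, 11704 and 13731 bp away, with 16, 14 and 13 tags. None of the 3 lay within 1 kb of another protein-coding gene end. The other 2 were at ends of Med24, a Mediator subunit, and Casc3, a part of the exon junction complex.

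Dbp (gene ID 13170, chr7:45705100-45710203, plus strand), the output factor of the loop, had the second highest number of tags at an end or start. By −log10 q it stood just below Nr1d2, and by fold enrichment below Arntl, Nr1d2 and Per2 as well as Per1. Its region at chr7:45704771-45705070 held 44 tags (32.0 to 59.1) with a fold enrichment of 8.33 and a −log10 q of 24.4. The summit was 167 bp outside the lower end of Dbp, 314 bp upstream of the start in the start table, and 246 bp from an end of Car11. The second Dbp region, of 17 tags, lay 116 bp from an end of Rpl18, a ribosomal protein gene.

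Ordered by tags at the strongest region of an end or start, the genes ran from Per1 (75) through Dbp (44), Nr1d2 (36), Arntl (29), Per2 (25), Cry2 (24), Nr1d1 (22) and Per3 (15) to Cry1 (12). The Poisson intervals of each gene and its neighbour in this order overlapped, those of Per1 and Dbp by a narrow margin (59.0 against 59.1), and differences between neighbours were not tested. The interval of Per1 lay above those of the 7 genes after Dbp. The strongest end regions of the 8 members with one had a median −log10 q of 15.0, against 9.89 for the 5961 protein-coding genes with one by the same rule. Their median width was 326 bp against 176 bp, and their median was 24.5 tags against 16. The median fold enrichments were close, 7.89 against 7.83. These medians describe the lists and carry no test.

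**Figure D2:**
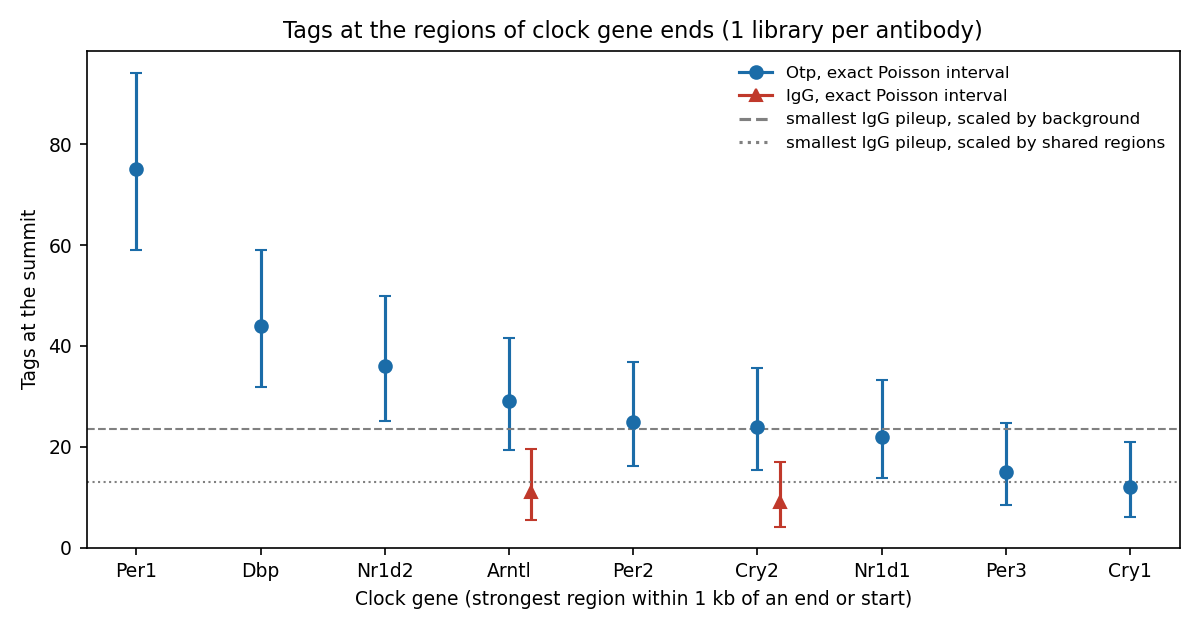
The vertical axis gives tags at the summit of the strongest region within 1 kb of an end or start of each clock gene, with 95% Poisson intervals, for Otp (circles) and, where a region was listed, IgG (triangles). Dashed and dotted lines mark the Otp pileups that correspond to the smallest IgG pileup under the 2 scalings; Per1 at 75 tags and Dbp at 44 stand well above both lines, while Cry1 at 12 is below both.

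The IgG list held a region at 2 of the 10 genes, Arntl and Cry2, where 1.72% of protein-coding genes had one inside or within 50 kb. Both lay within 1 kb of a start, against 0.383% of the genes of the start table. That of Cry2 also lay at the outermost end, as in 0.379% of protein-coding genes. At Arntl the IgG region was chr7:113207153-113207381, with 11 tags (5.49 to 19.7), a fold enrichment of 9.72 and a −log10 q of 11.2, rank 164 of 291. At Cry2 it was chr2:92434069-92434144, with 9 tags (4.12 to 17.1), a fold enrichment of 8.52 and a −log10 q of 9.12, rank 180. The summits of the 2 lists were 50 bp apart at Arntl and 52 bp at Cry2. Thus 2 of the 30 Otp regions overlapped an IgG region, against 2.46% of all Otp regions.

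The libraries differed in depth, as far as the lists show it. The genome background was 0.512 tags for Otp and 0.0873 for IgG, a ratio of IgG to Otp of 0.170. At 226 regions of both lists the median ratio of tags was 0.305. These regions had to pass the caller's threshold in the IgG list, so this ratio can run high. Those of Arntl and Cry2 are among them, so it is not an independent yardstick for these genes. At Arntl the ratio was 0.379, and IgG made up 27.5% of the tags of both libraries (exact binomial interval 14.6 to 43.9%). At Cry2 it was 0.375, or 27.3% (13.3 to 45.5%). The background corresponds to 14.6% and the shared regions to 23.4%. The Cry2 interval holds both. The Arntl interval holds the value of the shared regions, and its lower bound lies just above that of the background (14.60% against 14.56%). Otp did not exceed IgG at either gene by more than the ratio of the backgrounds. Of the 28 regions with no IgG overlap, 9 held enough tags to reach the smallest IgG pileup, 4 tags, when scaled by the background, and 22 when scaled by the shared regions. For Per1 the scaled values were 12.8 and 22.9 tags, with no IgG summit within 403266 bp of the gene. For Dbp they were 7.50 and 13.4, and for Nr1d2 6.14 and 11.0. Below 4 scaled tags, as for both Cry1 regions at the 5′ end under either scaling, a difference from IgG was not detectable at this depth. For comparison, the region at Mc4r held 11 tags (5.49 to 19.7). This is below the 23.5 and 13.1 Otp tags that scale to 4 by the background and by the shared regions, so the same limit holds there.

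The clock genes were next set beside genes of like length and of like CpG content. Such a region at an end was found for 5.39% of protein-coding genes in the shortest decile and 35.2% in the seventh, and the members sit from the third (Dbp) to the last (Arntl). Averaged over the members' own deciles, the share was 31.7%. The number of CpG around a start divided genes more sharply. Of starts in the lowest decile, with 0 or 1 CpG in 300 bases, 0.517% had an Otp region within 1 kb, and of those in the eighth decile, with 22 to 27, 53.2% did. The starts of Arntl, Dbp, Nr1d2 and the second of Per1, with 18 to 22 CpG, fell in a decile with 49.4%, and the first of Per1, with 16, in one with 42.6%. That of Cry2, with 30, fell in one with 51.7%, and those of Per3, Cry1 and 2 of Clock in one with 41.3%. The start of Nr1d1, with 9 CpG, fell in one with 25.9%. For each member with a region at a start except Nr1d1, the share of its CpG decile was thus above the 29.5% of all genes in the start table. The decile shares count starts, while the 29.5% counts genes. Counted by starts, 5936 of 21263 had a region within 1 kb.

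**Figure D3:**
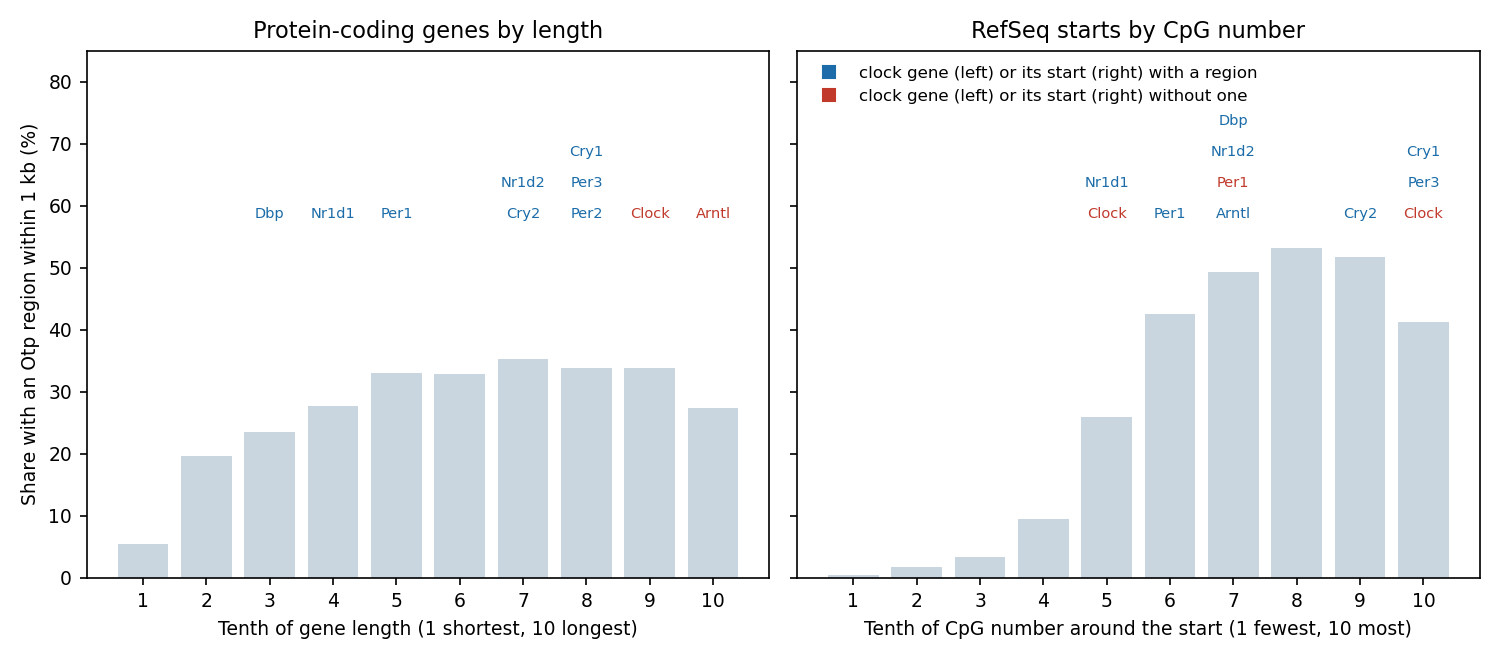
Bars give the share (%) of protein-coding genes with an Otp region within 1 kb of an end, by decile of gene length (left), and of RefSeq starts with one within 1 kb, by decile of CpG number in 300 bases (right). Clock genes are written above the decile they or their starts fall in, blue with a region and red without; shares reach 35.2% on the left and 53.2% on the right.

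Of the 9 member starts with a summit within 1 kb, 8 had it upstream, Nr1d1 being the other. Over all starts with a region that near, 83.2% had the nearest summit upstream, at a median distance of 96 bp. The 13 windows of 300 bases around the starts of 9 members (250 before and 50 after, both strands searched) were then compared with all 32851 windows. None of the 13 held TAATTA, a core bound by many homeodomain proteins, and 5.29% of all windows did. Among protein-coding starts it was in 2.27% of those with an Otp region within 1 kb and in 5.41% of those without. The E-box was in windows of Per1 and Cry1, against 7.15% of all windows. The ROR element was in windows of Clock, Arntl, Per1 and Nr1d2, against 16.3%. TGACG, which is the first part of the cAMP element, was in windows of Per1, Cry1 and Cry2, against 20.8%, and the whole element TGACGTCA was in none, against 1.79%. The GC box GGGCGG was in 11 of the 13 windows, against 35.7%. Among protein-coding starts, those with an Otp region within 1 kb held the GC box in 70.8% and those without in 36.7%, which is the nearer yardstick for members with a region. The same split was 36.7% and 18.5% for TGACG, 10.6% and 6.76% for the E-box and 9.86% and 16.6% for the ROR element. None of these splits was matched for base composition. The median GC content around the start was 40.3% in the lowest CpG decile and 64.0% in the eighth, where 0.517% and 53.2% of starts had an Otp region. TAATTA is made of A and T alone, and the part of base composition in these splits was not tested.

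CCAAT boxes were in 10 of the 13 windows, of 8 genes, against 37.4% of all windows, 50.1% of protein-coding starts with an Otp region and 33.6% of those without. Grouping starts by the number of these boxes, a step chosen after the values were seen, separated both lists. Of 13142 protein-coding starts with no CCAAT box, 22.5% had an Otp region within 1 kb (exact binomial interval 21.8 to 23.3%) and 0.137% an IgG region (0.0812 to 0.216%). Of 266 starts with 4 or more, 81.2% (76.0 to 85.7%) had an Otp region and 4.89% (2.63 to 8.21%) an IgG region. Among starts with at least 13 CpG the Otp shares were 37.9% with none and 95.0% with 4 or more, and the IgG shares 0.217% and 5.50%. Arntl is in the class of 4 or more, Per3 and the first Per1 start have 3, and Cry2 and Dbp have 2. Cry1, Nr1d2, the second Per1 start and 1 start of Clock have 1, and Nr1d1 and the other Clock starts have 0. Of these, Cry1, Nr1d2 and Nr1d1 had an Otp region within 1 kb of the start, while the second Per1 start and Clock had none. A match of letters is a description and not a site, and starts of one gene share bases, so these intervals are too narrow.

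**Figure D4:**
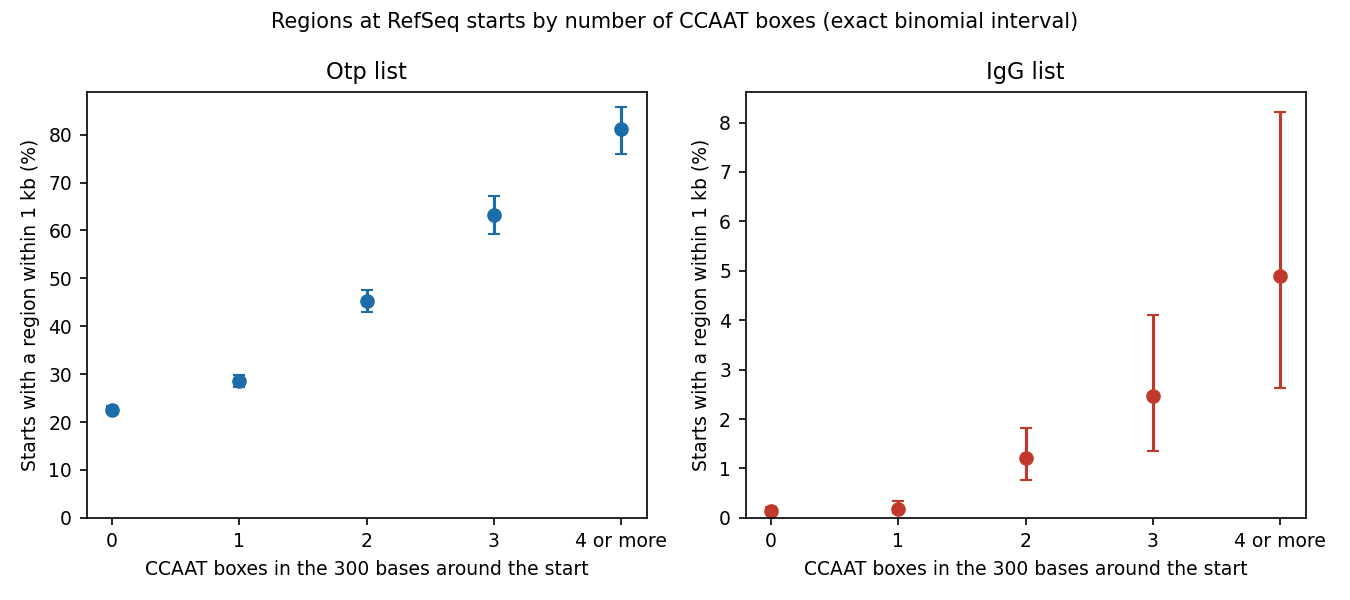
The vertical axes give the share (%) of protein-coding RefSeq starts with a region within 1 kb in the Otp list (left) and the IgG list (right), and the horizontal axes the number of CCAAT boxes in the 300 bases around the start; bars are 95% exact binomial intervals. Shares go from 22.5% to 81.2% for Otp and from 0.137% to 4.89% for IgG, and the Arntl start belongs to the class at the right.

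Around the members, 6 of 10 had at least 3 Otp regions inside or within 50 kb, against 18.1% of protein-coding genes. For Per1, Per2 and Nr1d2, which had 3 each, the share of genes with as many in their deciles of length was 22.2%, 16.0% and 16.7%. Regions at the ends of neighbouring genes count in both shares. There were 8 regions more than 1 kb from every protein-coding gene end and every listed start of a member. Ends of non-coding genes were not searched. Those with most tags were 1311 bp inside Nr1d1 (27 tags), outside Cry2 and 5777 bp from an end of Mapk8ip1 (22 tags, 13.8 to 33.3, at chr2:92389368-92389609), and inside Cry2 (20 tags, 12.2 to 30.9, at chr2:92424839-92425074, 9091 bp downstream of the start).

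Of 29 further genes of the wider clock pathway, 15 carried an Otp region at an end, against 27.2% of all protein-coding genes and 31.4% on average in their deciles of length. Their strongest end regions had fold enrichments of 5.68 to 10.5 and 10 to 42 tags, and none overlapped an IgG region. Of the ubiquitin ligase subunits that mark PER and CRY proteins for destruction, Btrc (10.5, 27 tags), Fbxl21 (9.45, 19 tags) and Fbxw11 (6.06, 12 tags) had one. Among the kinases, Csnk1a1 (9.92, 26 tags) and Gsk3b (9.70, 42 tags, 806 bp wide) had a region, whereas Csnk1d and Csnk1e, which set the pace of the clock by phosphorylating PER, had none within 50 kb.

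Of the partners of the PER and CRY complex, the RNA-binding proteins Sfpq (9.24, 23 tags) and Nono (8.22, 14 tags) and the replication factor Tipin (7.94, 11 tags) had a region, and Timeless and Wdr5 did not. The E-box repressors Ciart (8.00, 20 tags) and Bhlhe40 (7.91, 20 tags) had one and Bhlhe41 had none. The D-box factors Hlf (6.02, 10 tags) and Tef (5.68, 14 tags), the receptors Rorb (5.89, 10 tags) and Rora (5.70, 10 tags) and the deubiquitinase Usp2 (5.90, 12 tags) were at the low end. Usp7 had none, and Nfil3 had none at an outermost end but had a region within 1 kb of a RefSeq start, as Arntl did. Npas2 and Arntl2, the relatives of Clock and Arntl, and the output genes Noct, Prok2 and Prokr2 also had none at an end.

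Peak lists do not measure expression, so the labelled cells can be checked only by where regions lie. Of 7 PVN genes, Sim1, Trh and Pou3f2 had Otp regions at an end, while Avp, Crh, Oxt and Otp did not, and 1 had an IgG region within 50 kb, against 27.2% and 1.72% of protein-coding genes. None of 5 genes of the suprachiasmatic nucleus, Vip, Nms, Lhx1, Rgs16 and Prok2 (also in the wider clock list), had one. Snap25 and Syt1 of 3 neuronal genes, Agrp of 3 genes of other hypothalamus and Mbp of 3 oligodendrocyte genes had one, and none of 3 astrocyte or 3 microglial genes did. With 3 to 7 genes a list, nothing was read from how these counts stand to 27.2%. Their part in the results on clock genes was not tested.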

How the data were processed

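The deposited files are 1 peak list per library. The tools named in the submitters' processing notes are MACS2, SAMtools, Picard, Bowtie2 and Trimmomatic, with the build mm10. Their versions and settings, how duplicates were handled and whether a control was used are each not given in the sources used here. Each deposited list gives a fold enrichment (a ratio), a −log10 p and a −log10 q per region, which are the authors' values, and a deposited display score, which was not used. The authors' lists were made per sample. The pileup was solved from fold and p and kept where 1 whole number of tags gave the authors' −log10 p to 0.001 with its neighbours off by over 0.005, by the MACS2 definitions of fold (pileup plus 1 over background plus 1) and p (Poisson tail). This worked for 98.3% of 11379 Otp and 90.0% of 291 IgG regions, all 30 at the members among them, and was tested on simulated data. Total depth is unknown. As genome background the smallest one found in 3 or more regions was taken. Intervals are 95% Poisson or exact (Clopper-Pearson) ones and cover counting error only, since PCR copies are not independent molecules.

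Gene positions and start sequences came from RefSeq tables of GRCm38.p6, with 21887 protein-coding genes on nuclear chromosomes and 17492 of them with starts. Exons were not used here. Overlap meant at least 1 bp. All 10 members, all 29 wider genes and all marker genes were matched by symbol. The members and lists were chosen with earlier results of these data known. Named genes are the members, the wider genes with a region at an end, genes whose ends lay nearer to a described region, and Mc4r. Some wider genes without a region are not reported here by name. The naming of the others, the choice of printed sequences and the order by tags were settled after the values were seen. Alternatives were stricter thresholds, other windows, whole intervals, other overlap rules and other gene sets. Python 3.11.15, numpy 2.4.6, scipy 1.17.1 and pandas 2.3.3 were used.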

Additional observations from a re-analysis of the deposited data

How the results depend on the processing

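A −log10 q of at least 10 moved the counts most, since it removes regions by construction. With it, 5 clock genes kept a region at an end (Per1, Per2, Cry2, Nr1d2 and Dbp), against 13.4% of protein-coding genes and 15.8% in the members' length deciles. Of the 30 Otp regions of the members 13 were left, where 3932 of all 11379 were. In addition, 1 gene with an IgG region was left, the overlap with IgG at Arntl was the 1 left, and 7 wider genes had a region. At −log10 q of at least 5 the background shares were 23.3% and 27.2%, with 7 members. A fold enrichment of at least 5 gave 25.7% of all genes with 8 members. Within 500 bp of an end the shares were 25.1% and 29.4%, and within 5 kb 34.4% and 39.4%, with 8 members at both. All annotated genes gave 14.7%, and no length matching 27.2%. Within 100 kb there were 47 Otp regions, a count for which no share over all genes was worked out. A reciprocal overlap of 50% left 1 shared region, at Arntl. Start sites in place of gene ends, chosen after seeing the data, gave 8 of 9 members and 11 of 22 wider genes, against 29.5% of the genes in the start table. Under all alternatives, 34 such values stayed within 1.5 times of the count or inside the interval of the share and 18 moved. Of the nearest distances per gene 26 stayed and 4 moved, for Per3, Cry1 and Nr1d1. No paired analysis was possible because there is 1 library per antibody. For the same reason none could be left out in turn.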
